A study of Mus musculus with 6 samples.

Results

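The RNA of 10 tissue-specific regulators of alternative splicing was measured in immortalized mouse podocytes with and without the type IV collagen gene Col4a3: Rbm20, Rbfox2, Mbnl1, Mbnl2, Mbnl3, Esrp1, Esrp2, Ptbp1, Ptbp2 and Celf2. All 10 were found by symbol among the 57132 genes of the count table. They were chosen by name, and the set was chosen because Rbm20 is far higher in Alport Syndrome (AS) than in wildtype (WT) podocytes in these same libraries, so the differences between AS and WT podocytes are given below for these genes as a description. Their p-values are not printed, and where a gene is said to be called this only counts it against the share of all genes called.

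The 3 WT samples carry Col4a3+/+ and the 3 AS samples Col4a3-/-. All 6 come from male mice of 8 weeks per the labels and were not treated. The cells were grown at 33 °C with interferon gamma at 20 U/mL and differentiated at 37 °C for 14 days per the labels, whereas the methods of the study give fewer days and less interferon. Both lines carry the H-2Kb-tsA58 transgene, a temperature-sensitive form of the SV40 large T antigen under an interferon-responsive promoter, which keeps them dividing in the cold. Each genotype is 1 line, so that genotype and line cannot be told apart, and the labels do not say whether the 3 samples of a line are separate cultures. The p-values given for other genes therefore measure the spread between these samples, which may be technical.

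The total count lay between 45417221 and 54290968 reads per sample. Values are given as CPM, which are counts scaled to the library size after TMM normalisation, and ± gives the SD over the 3 samples of a line (n = 3). Col4a3, the gene that was knocked out, lay between 938 and 1272 CPM in WT and between 61.2 and 82.9 CPM in AS podocytes. Tcf21, a transcription factor of podocytes, had 0 counts in every sample. Nphs1, which encodes nephrin of the slit diaphragm, was at 0.466 ± 0.00969 CPM in WT against 0.0407 ± 0.0390 CPM in AS podocytes, and the podocyte transcription factor Wt1 was at 20.6 ± 5.28 against 2.505 ± 0.928 CPM. Synpo, an actin-binding protein of podocyte foot processes, was at 803 ± 44.2 and 526 ± 30.8 CPM. Of the 13 podocyte markers tested, Col4a3 among them, 2 rose and 9 fell, and the summed level of the list was 3813 to 4116 CPM in the WT and 2173 to 2367 CPM in the AS samples. Without Col4a3 the sum was 2761 to 3034 CPM in the WT and 2112 to 2305 CPM in the AS samples. Of these markers, Tcf21 was thus absent from the counts of both lines, and Nphs1 was under 1 CPM in both.

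Most mouse genes make more than 1 mRNA by including or skipping exons, and proteins that bind the pre-mRNA near an exon set which form a cell makes. RBM20 is best known from heart and skeletal muscle, where it keeps exons of titin and of calcium-handling genes out of the mRNA. RBFOX2 and the muscleblind proteins MBNL1, MBNL2 and MBNL3 act in many tissues, either including or skipping an exon according to where they bind, and CELF2 often acts against the muscleblind proteins. ESRP1 and ESRP2 drive exon choices of epithelial cells. PTBP1 represses exons in most cells other than neurons, among them an exon that its neuronal relative PTBP2 needs for a stable mRNA. The counts are given per gene, so that the splicing of any transcript was not measured here.

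RBM20 carries a stretch rich in arginine and serine, which is phosphorylated by kinases of splicing factors and in which mutations cause dilated cardiomyopathy. The stretch is shown because the finding turns on this gene. It was read from the GENCODE M21 transcript of Rbm20, whose coding sequence has 3597 bases. Bases 1876 to 1950 of the coding sequence are printed, with codons 636 to 640, the arginine and serine core, in capitals.

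Rbm20 coding stretch: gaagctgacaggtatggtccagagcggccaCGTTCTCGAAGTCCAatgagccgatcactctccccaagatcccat

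Of the 6784 different runs of 50 bases in the annotated Rbm20 transcripts, 0 occur in a transcript of another annotated gene on either strand. Within GENCODE M21, an exact read of that length from an Rbm20 transcript therefore matches no other gene. The annotation release used for the counting is not stated, and matches with mismatches were not searched. The assignment of the reads in the deposited counts was thus not tested.

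Rbm20 (ENSMUSG00000043639.16, chromosome 19) was nearly absent from WT podocytes and clearly present in AS podocytes. The WT samples held 29, 37 and 40 reads of it, whereas the AS samples held 2430, 2545 and 3105. Scaled to CPM, WT podocytes had 0.572, 0.790 and 0.867 against 53.9, 49.5 and 56.4 in AS podocytes. Every AS sample lay above every WT sample, and the lowest AS value was 57.1 times the highest WT value. The means were 0.743 ± 0.153 CPM in WT against 53.3 ± 3.50 CPM in AS podocytes (71.9-fold, log2 fold change 6.17, standard error 0.13). This was the value on which the choice of the genes rested. Among the 12912 genes with a mean CPM of at least 1, it was number 17 from the top of the fitted log2 fold changes. Rbm20 made up 0.0521% of the summed CPM of the 10 genes in WT and 3.50% in AS podocytes. With 1 sample left out in turn, its log2 fold change stayed between 6.002 and 6.29. The median log2 fold change of the 550 tested genes of chromosome 19 was 0.19, and relative to that median Rbm20 was at 5.98.

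**Figure D1:**
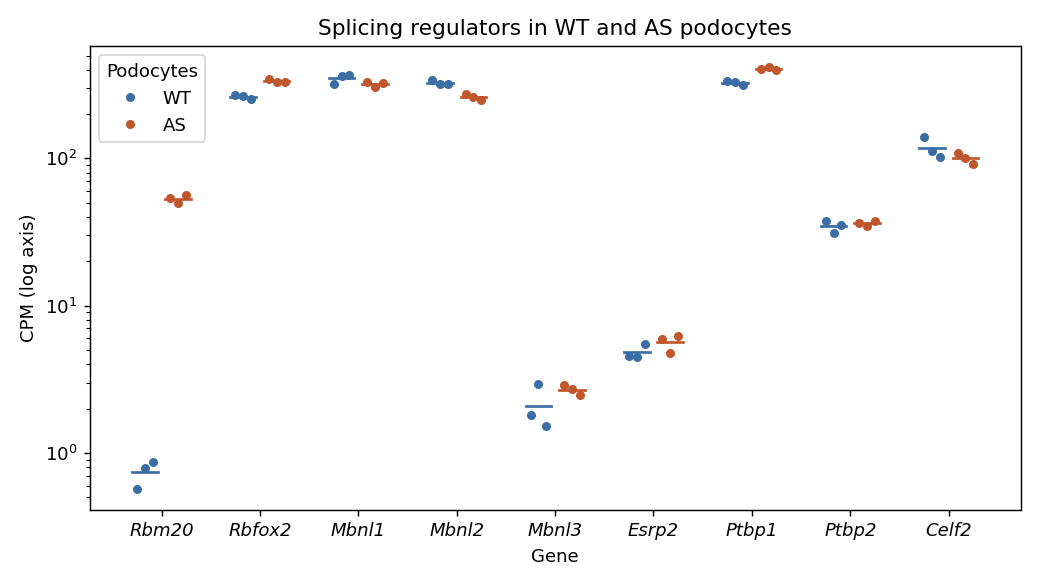
CPM on a log axis for each of the 9 genes that passed the count filter, with 1 point per sample (3 WT in blue, 3 AS in orange) and a line at the group mean. Rbm20 moves from under 1 CPM in WT to above the level of Ptbp2 in AS podocytes, while the groups of the other genes lie close together; Esrp1, with 0 counts in every sample, is left out.

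Of the 10 genes, 9 passed the filter on low counts and entered the fit. In edgeR's quasi-likelihood test, 3 of them were higher in AS podocytes at an adjusted p under 0.05 (Rbm20, Rbfox2 and Ptbp1) and 1 was lower (Mbnl2), where 40.1% of all 16263 genes tested were called (20.4% higher and 19.6% lower). The same 4 genes were the ones whose WT and AS samples did not overlap, which held for 52.3% of all genes tested (26.4% with AS higher and 26% with AS lower). The median log2 fold change was 0.21 over the 9 genes and 0.0061 over all genes tested. Since the comparison had entered the choice of the genes, nothing is read from these counts.

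Rbfox2 (ENSMUSG00000033565.20, chromosome 15), the only gene of the RBFOX family in the set, was at 269, 267 and 253 CPM in WT against 347, 329 and 333 CPM in AS podocytes. All AS samples were above all WT samples. On the log2 scale the fold change was 0.36 (standard error 0.06), or 1.28-fold. The genes of chromosome 15 as a whole had a median log2 fold change of 0.20, and Rbfox2 lay 0.16 above that median. Its relatives were far less abundant. Rbfox1, the RBFOX gene of muscle and brain, was at 1.03, 2.69 and 2.23 CPM in WT against 0.266, 0.292 and 0.581 CPM in AS podocytes. Rbfox1 fell (log2 fold change -2.36, standard error 0.44, adjusted p = 0.00230), so that the RBFOX genes differed in opposite directions. Rbfox3, which marks neurons and was named after its values were seen, had 3 or 4 counts in each WT sample and 0 in each AS sample.

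Among the muscleblind genes, Mbnl1 and Mbnl2 carried nearly all of the counts and Mbnl3 very few. Mbnl1 (ENSMUSG00000027763.14, chromosome 3), the most widely expressed of them, was at 321, 362 and 371 CPM in WT against 328, 307 and 323 CPM in AS podocytes. These values overlapped. Fitted over all samples, the log2 fold change was -0.14 (standard error 0.07), close to the median of -0.11 for the genes of chromosome 3. It was called only in the fit without WT replicate 1, of the alternatives run.

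Mbnl2 (ENSMUSG00000022139.18, chromosome 14), the main muscleblind gene of brain, was at 341, 318 and 319 CPM in WT against 273, 262 and 250 CPM in AS podocytes. All AS samples were below all WT samples. The fitted log2 fold change was -0.32 (standard error 0.06), a level of 0.803 times that of WT. The median of chromosome 14 was -0.04, and Mbnl2 lay at -0.27 relative to it. The ratio of Mbnl1 to Mbnl2, formed from CPM within a sample, was 0.942, 1.14 and 1.17 in WT against 1.20, 1.17 and 1.29 in AS podocytes. The highest WT ratio and the lowest AS ratio differed by little, at 1.166 and 1.170.

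Mbnl3 (ENSMUSG00000036109.18, chromosome X), which is known from placenta and from muscle precursors, had between 70 and 140 counts in each sample. It was at 1.81, 2.93 and 1.52 CPM in WT against 2.89, 2.72 and 2.47 CPM in AS podocytes. WT replicate 2 was above every AS sample, so that the groups overlapped. Its log2 fold change was 0.37 with a standard error of 0.25. Leaving out WT replicate 3 gave 0.18 and leaving out WT replicate 2 gave 0.69, and of the 6 fits that each lacked a sample, only the latter had an adjusted p under 0.05.

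Ptbp1 (ENSMUSG00000006498.17, chromosome 10) was the most abundant of the 10 genes per length in both lines. It was at 333, 331 and 314 CPM in WT against 407, 415 and 399 CPM in AS podocytes. All AS samples were above all WT samples. On the log2 scale the fold change was 0.32 (standard error 0.06), or 1.25-fold. The 758 tested genes of chromosome 10 had a median log2 fold change of 0.31, of which 78.0% were above 0, and Ptbp1 lay at 0.01 relative to that median. The difference of Ptbp1 was thus as large as that of the median gene of its chromosome. Exons of E130317F20Rik, Plppr3 and Gm17134 on the other strand overlap 295, 251 and 437 of the 4740 exonic bases of Ptbp1. Plppr3 had 141 to 178 counts in the WT and 304 to 437 in the AS samples. As the strand setting of the counting is not stated, reads in these overlaps cannot be told apart. Of the runs of 50 bases in Ptbp1, 18.3% occur in another annotated gene on either strand, and 4.75% in the processed pseudogene Gm4900. That pseudogene had 7 to 22 counts per sample, against 14475 to 21942 for Ptbp1.

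Ptbp2 (ENSMUSG00000028134.12, chromosome 3) was at 37.9, 31.4 and 35.3 CPM in WT against 36.4, 34.7 and 37.4 CPM in AS podocytes. The groups overlapped fully. Fitted over all samples, the log2 fold change was 0.05 (standard error 0.08), and its sign changed to -0.019 without WT replicate 2. The ratio of Ptbp1 to Ptbp2 was 8.80, 10.5 and 8.89 in WT against 11.2, 11.98 and 10.7 in AS podocytes. The ratio was higher in all 3 AS samples, with the highest WT ratio just below the lowest AS ratio. Ptbp3, the third gene of the family, was at 163 ± 20.4 CPM in WT against 167 ± 10.8 CPM in AS podocytes (log2 fold change 0.04, standard error 0.09, adjusted p = 0.782).

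**Figure D2:**
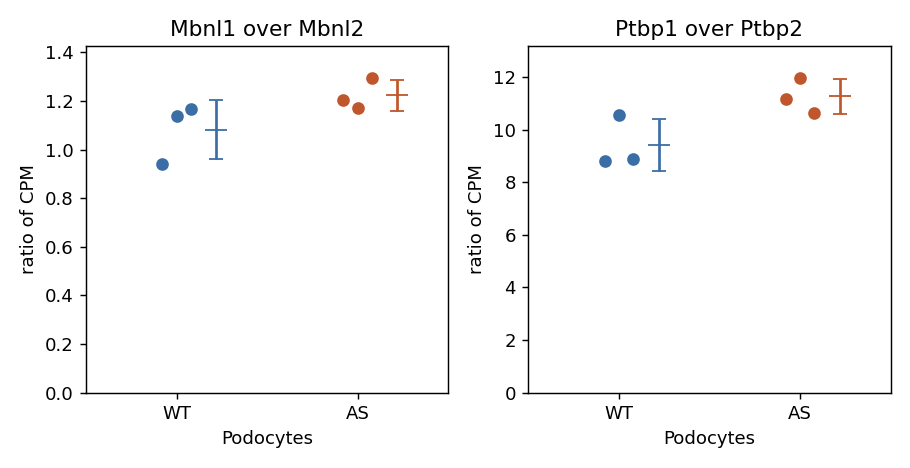
Ratio of CPM within each sample for Mbnl1 over Mbnl2 and for Ptbp1 over Ptbp2, with 1 point per sample and the mean with its SD beside the points; both axes start at 0. In both panels the 3 AS points lie above the 3 WT points, by a small margin.

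Esrp1 (ENSMUSG00000040728.16, chromosome 4) had 0 counts in all 6 samples. With 3 counts summed over the samples of a line as the limit that 0 allows, its level could be up to 0.0209 CPM (WT) and 0.0198 CPM (AS), by counting error only. Of the 6305 exonic bases of Esrp1, 127 overlap the lincRNA Gm26663 on the other strand. Raver1, a cofactor of PTBP1, was likewise listed at 0 in every sample. The treatment of reads from overlapping genes is not stated, and its part in these 0 counts was not tested.

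Esrp2 (ENSMUSG00000084128.11, chromosome 8) was present at a low level, with 211 to 342 counts per sample. It was at 4.58, 4.51 and 5.53 CPM in WT against 5.93, 4.77 and 6.21 CPM in AS podocytes. AS replicate 2 lay within the WT range. The log2 fold change of 0.21 (standard error 0.16) was below the median of 0.31 over the 890 tested genes of chromosome 8. Of its 4340 exonic bases, 219 overlap Nfatc3 on the other strand, and Nfatc3 had 5380 to 9914 counts per sample. The strand setting of the counting is not stated, so that reads of Esrp2 and Nfatc3 in that overlap cannot be told apart.

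Celf2 (ENSMUSG00000002107.20, chromosome 2) was at 139.8, 112 and 102 CPM in WT against 109.6, 100.1 and 92.3 CPM in AS podocytes. The groups overlapped, and WT replicate 1 stood above the other samples. An antisense lincRNA, Gm26565, overlaps 1961 of its 25884 exonic bases. The fitted log2 fold change was -0.23 (standard error 0.11), and it was -0.08 without WT replicate 1 and -0.32 without WT replicate 3, where it was called. Its relative Celf1 fell slightly, from 191 ± 5.02 to 166 ± 2.61 CPM (log2 fold change -0.20, standard error 0.05, adjusted p = 0.0116), which missed the threshold without AS replicate 3 (adjusted p = 0.0516, edgeR's quasi-likelihood test).

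**Figure D3:**
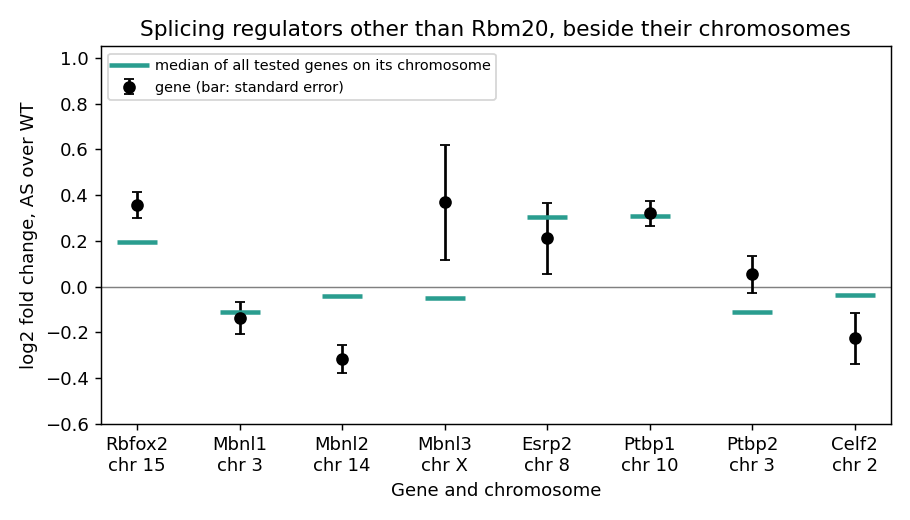
Log2 fold change of AS over WT with its standard error for the 8 genes other than Rbm20 and Esrp1, and the median log2 fold change of all tested genes on the same chromosome (green bar). Ptbp1, Esrp2 and Mbnl1 lie within 1 standard error of their chromosome, at 0.01, -0.09 and -0.03 relative to it, whereas Mbnl2 lies at -0.27.

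Levels of different genes were compared per kilobase of merged exons. In WT podocytes the order was Ptbp1 (68.8 CPM per kilobase), Rbfox2 (32.3), Mbnl2 (27.2), Mbnl1 (18.8), Celf2 (4.54), Ptbp2 (3.80), Esrp2 (1.12), Mbnl3 (0.239) and Rbm20 (0.109), with Esrp1 at 0. In AS podocytes the order of the first 4 was the same, and Rbm20, at 7.85 ± 0.515 CPM per kilobase, came next, above Ptbp2 (3.94) and Celf2 (3.89). The samples of Celf2 and Ptbp2 overlapped in both lines, and those of the other neighbours in these orders did not. With the longest transcript as length, Rbm20 was at 10.9 and Celf2 at 11.4 CPM per kilobase in AS podocytes and their samples overlapped. With that length Mbnl1 came before Rbfox2 in both lines. Mbnl2 (58.6) also came before Rbfox2 (38.1) in WT podocytes, and in AS podocytes the samples of Mbnl2 (47.1) and Rbfox2 (48.7) overlapped. Rbm20 thus went from the lowest detected gene of the set to about the middle of it under either length.

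Profiles of log2 CPM over the 6 samples, each with the mean of the gene removed, were compared by distance. Among genes with a mean CPM of at least 1 and a count in every sample, the 5 nearest to Rbm20 were taken. These were Rpsa-ps10, Syt14, AC158975.2, Gm8979 and Stmn2, at distances of 0.590 to 0.840. Rpsa-ps10, a ribosomal protein pseudogene, was at 2.82 ± 0.452 CPM in WT against 149 ± 3.98 CPM in AS podocytes. Syt14, a synaptotagmin, was at 0.209 ± 0.0458 and 11.8 ± 0.462 CPM, and Stmn2, a tubulin-binding protein that is also in the list of neuronal markers, at 0.245 ± 0.0434 and 11.1 ± 1.38 CPM. All of these genes were higher in every AS sample than in any WT sample, which follows from their choice by likeness to Rbm20. The likeness is a description.

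The transcripts that RBM20 is known to act on were followed by a list of 20 genes. Of the 17 that passed the filter, 1 rose and 4 fell at an adjusted p under 0.05, which is 29.4% against 40.1% of all genes tested, and the median log2 fold change was -0.22. Titin (Ttn), the best-known target of RBM20, had at most 7 counts in any sample and did not pass the filter. Ldb3, a protein of the muscle Z-disc, fell from 34.2 ± 8.86 to 16.9 ± 0.651 CPM (log2 fold change -1.02, standard error 0.16, adjusted p = 0.000892). Sh3kbp1 (log2 fold change -0.27, adjusted p = 0.00780) and Pdlim5 (-0.25, adjusted p = 0.0296) fell and Lrrfip1 (0.24, adjusted p = 0.00577) rose by less. Nexn (-0.52, adjusted p = 0.0344), named after its value was seen because it completes the count, also fell. Pdlim5 missed the threshold whenever a sample other than WT replicate 1 was left out, and the count of called genes in this list was 9 without WT replicate 1 and 3 without WT replicate 2, AS replicate 1 or AS replicate 3.

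Since RBM20 is best known from striated muscle, markers of that tissue were measured beside it. Of 17 markers, 14 had a mean under 1 CPM, Myh6 and Ckm had 0 counts in every sample, and the summed level of the list was 10.8 to 22.3 CPM in the WT and 18.8 to 22.9 CPM in the AS samples. Acta1 and Tnnt2, named after their values were seen, were present in both lines and were not called. Acta1 was at 8.05 ± 4.18 CPM in WT against 6.37 ± 1.49 CPM in AS podocytes, and Tnnt2 at 3.83 ± 0.777 and 3.69 ± 0.487 CPM. Of the 7 that passed the filter, 1 rose, the natriuretic peptide gene Nppa, from 2.05 ± 0.484 to 8.18 ± 0.221 CPM (adjusted p = 3.19e-05). Of 6 smooth muscle markers, 5 were tested, of which 4 fell and 0 rose (80% called, against 40.1% of all genes tested). The summed level was 10954 to 13396 CPM in WT and 9691 to 11333 CPM in AS samples. The largest part was Acta2, which was not called, at 6701 ± 1094 CPM in WT against 6759 ± 588 CPM in AS podocytes. Myh11 fell from 29.1 ± 8.31 to 3.96 ± 1.01 CPM and Cnn1 from 464 ± 15.2 to 137 ± 8.62 CPM. These 3 genes were named after their values were seen. The part of other cell types in the level of Rbm20 was not tested, and in bulk RNA fewer cells of a type and less RNA per cell cannot be told apart. The summed levels were 158 to 189 CPM in WT and 161 to 167 CPM in AS samples for 7 neuronal markers, of which Snap25 had 0 counts, 248 to 276 and 124 to 126 CPM for 5 mesangial markers, and 378 to 424 and 281 to 392 CPM for 8 tubular markers, of which Umod and Aqp2 had 0 counts. Most of each sum came from few genes. By mean CPM in WT and AS podocytes these were Tubb3 (136 and 135), Pdgfrb (253 and 116), and Lrp2 (274 and 255) with Aqp1 (115 and 69.7). For 6 endothelial and 6 immune markers the highest sum in any sample was 3.14 CPM. Of the tested markers, 1 neuronal gene (Stmn2) rose, and 1 neuronal (Map2), 1 mesangial, 1 tubular and 1 endothelial gene fell.

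Of the kinases that phosphorylate arginine and serine stretches, Srpk1 and Clk1 were not called with all samples. Srpk1 was at 89.8 ± 2.92 CPM in WT against 86.0 ± 3.64 CPM in AS podocytes (log2 fold change -0.06, standard error 0.06, adjusted p = 0.408), and Clk1 at 61.8 ± 11.0 and 78.5 ± 18.7 CPM (0.35, standard error 0.18, adjusted p = 0.147). Clk1 ran from 0.21 to 0.52 with 1 sample left out and passed the threshold without AS replicate 1 (adjusted p = 0.0160, edgeR). Among the 20 SR proteins and their kinases, 1 rose and 2 fell, which is 15% of those tested, and 5 were called without WT replicate 1. Srsf10 fell from 101 ± 3.50 to 87.1 ± 1.72 CPM (adjusted p = 0.00871), Srsf9 rose from 41.1 ± 2.14 to 46.7 ± 0.907 CPM (adjusted p = 0.0372), and Srsf12, named after its value was seen because its mean was under 1 CPM, fell from 1.39 ± 0.0708 to 0.167 ± 0.0533 CPM (adjusted p = 0.000126). The call of Srsf9 held without WT replicate 1 but was lost when any other sample was left out (adjusted p = 0.0682 to 0.135, edgeR). Srsf9 lies on chromosome 5, and relative to the median of that chromosome its log2 fold change was -0.0029. Srsf10, with a log2 fold change of -0.22, lies on chromosome 4, where the median over all tested genes was -0.17. Srsf1 (adjusted p = 0.0539) and Tra2a (adjusted p = 0.0689) did not pass.

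A list of 31 other splicing regulators held both tissue-enriched genes and widely expressed ones such as Celf1, Tial1 and Rbm5. Of the 22 tested, 4 rose and 8 fell (54.5% called), with a median log2 fold change of -0.04. Rbm24, which like RBM20 acts in striated muscle, fell from 7.67, 4.10 and 4.40 CPM in WT to 0.355, 0.389 and 0.745 CPM in AS podocytes (log2 fold change -3.42, standard error 0.35, adjusted p = 6.93e-05). Khdrbs3, a STAR-family RNA-binding protein, fell from 31.7 ± 0.384 to 12.1 ± 1.63 CPM (log2 fold change -1.39, standard error 0.10, adjusted p = 6.35e-06). Tial1 (0.36, adjusted p = 0.00117) and Rbm5 (0.44, adjusted p = 0.00185) rose.

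Of 25 hnRNP genes, 7 rose and 2 fell (36% called), and of 36 genes of the core spliceosome 7 rose and 3 fell (27.8% called), a count of 10 that went down to 6 without WT replicate 3 or AS replicate 1. The clearest were Hnrnph3 (log2 fold change 0.61, adjusted p = 7.82e-05), Hnrnpdl (0.59, adjusted p = 0.000244), Hnrnpul2 (0.38, adjusted p = 0.000462) and Hnrnpa1 (0.33, adjusted p = 0.00334) among the hnRNP genes, and Sf3b3 (0.62, adjusted p = 7.71e-05), Snrpd3 (0.49, adjusted p = 0.000968), Snrpf (0.44, adjusted p = 0.00234) and Sf3b4 (-0.35, adjusted p = 0.00115) in the spliceosome. Hnrnph3, Snrpd3 and Snrpf lie on chromosome 10 with Ptbp1, and relative to its median they were at 0.30, 0.18 and 0.13. Sf3b3, on chromosome 8 with Esrp2, was at 0.31 relative to the median there. The values relative to the own chromosome were 0.40 for Hnrnpdl (chromosome 5), 0.19 for Hnrnpul2 (chromosome 19), 0.13 for Hnrnpa1 (chromosome 15) and -0.24 for Sf3b4 (chromosome 3).

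**Figure D4:**
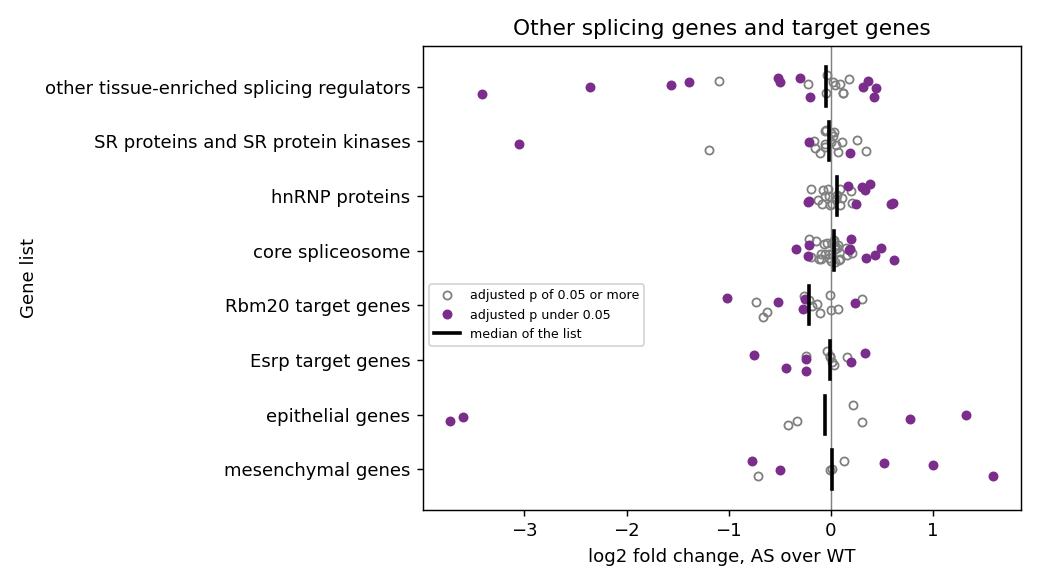
Log2 fold change of AS over WT for each tested gene of 8 lists (filled points, adjusted p under 0.05; open points, 0.05 or more; black line, median of the list), with points spread vertically for visibility. The hnRNP and core spliceosome genes lie between -0.35 and 0.62, while Rbm24 and Rbfox1 in the list of other splicing regulators lie at -3.42 and -2.36. In other lists Srsf12, Krt19 and Krt18 lie at -3.05, -3.60 and -3.73. Each of these low-lying genes had a mean under 1 CPM in AS podocytes.

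The genes around the ESRP proteins were described last. Of 17 epithelial genes, a list that includes Esrp1 and Esrp2, 8 passed the filter, and E-cadherin (Cdh1) was at 0.363 ± 0.0614 CPM in WT against 0.285 ± 0.0982 CPM in AS podocytes. In this list 2 rose and 2 fell (50% called). Krt19 fell from 3.98 ± 1.28 to 0.340 ± 0.342 CPM (adjusted p = 0.00113) and the protease gene St14 rose from 10.6 ± 1.597 to 18.1 ± 2.31 CPM (adjusted p = 0.00145). Krt18 fell and Tjp3 rose as well, both at means under 1 CPM and named after their values were seen. Krt7 (adjusted p = 0.221) and Grhl1 (adjusted p = 0.193) did not pass. Of 13 genes whose splicing ESRP proteins are known to set, 2 rose and 4 fell (46.2% called), among them Magi1 (log2 fold change -0.75, adjusted p = 1.17e-05) and Cd44 (-0.44, adjusted p = 0.00837), which fell, and Scrib (0.34, adjusted p = 0.00359), which rose. Dnm2 (-0.25, adjusted p = 0.00588) fell. Of 10 mesenchymal genes, 9 were tested and 55.6% of these were called. Of them 3 rose, the transcription factors Twist1 (1.59, adjusted p = 1.05e-06) and Snai2 (1.00, adjusted p = 0.000499) and N-cadherin (Cdh2, 0.52, adjusted p = 0.000609), and 2 fell, Zeb2 (-0.49, adjusted p = 0.00209) and Prrx1 (-0.77, adjusted p = 0.0343), the latter named after its value was seen.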

How the data were processed

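For 3 WT and 3 AS podocyte samples, mRNA libraries amplified by 15 PCR cycles were sequenced. The authors deposited raw counts per gene, and their processing notes name FastQC, Trim Galore, STAR, edgeR and the build mm39. The counting tool, annotation release and strand setting are not stated in the labels or methods. Symbols, chromosomes and lengths were taken from GENCODE M21 (GRCm38, 51880 identifiers matched without version), and no coordinates are given.

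The main test was that of edgeR 4.0.16 in R 4.3.3 (filterByExpr, minimum count 10 and minimum total 15; TMM; quasi-likelihood test, two-sided, Benjamini-Hochberg over 16263 genes, no term besides genotype). Standard errors were approximated from each log2 fold change and its F statistic (absolute change over root F). DESeq2 1.42.0, limma 3.58.1 (voom), other scalings and filters, a replicate block, the median of the chromosome removed and each sample left out were alternatives. The test was tested on simulated data. The members and lists were chosen with earlier results of these data known. Named are the members, Col4a3, Srpk1, Clk1, Ptbp3, Rbm24, Rbfox1, Celf1, Ttn, up to 4 genes per pathway list with the smallest adjusted p and a mean CPM of at least 1, list genes at 0 counts in 1 line that reach a mean of 1 CPM in the other line (there were none), and the 5 profiles nearest to Rbm20 (genes with a 0 left out after the files were seen). Depth limits genes near 0 counts, and limits for 0 counts hold for counting error alone, because PCR copies were not marked by molecular identifiers.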

Additional observations from a re-analysis of the deposited data

How the results depend on the processing

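The log2 fold change of Rbm20 stayed between 5.98 and 6.29 under every alternative run. As a description, since the choice of the genes used these values, the 4 called genes did not change except that a further gene was called in some fits: Celf2 with no low-count filter, with the replicate block and without WT replicate 3, Mbnl1 without WT replicate 1, and Mbnl3 without WT replicate 2. With the median of the chromosome removed, Rbfox2 was at 0.16, Ptbp1 at 0.01, Ptbp2 at 0.16, Esrp2 at -0.09 and Mbnl1 at -0.03. The cause of these moves was not tested. The number of all genes called was 6517 and lay between 5120 and 7066.

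The count of SR proteins and their kinases (3) was 6 with the replicate block and 2 to 5 with 1 sample left out (5 without WT replicate 1). That of the core spliceosome (10) ran from 6 to 12, at 6 without WT replicate 3 or AS replicate 1. That of Rbm20 target genes (5) was 3 with library size only, 8 without a filter and 3 to 9 with 1 sample left out, at 3 without WT replicate 2, AS replicate 1 or AS replicate 3. That of epithelial genes (4) was 2 among genes whose mean reached 1 CPM, a setting that tests fewer genes. For the 38 other genes named by the rule (those named after their values were seen were not included), 467 of 494 values from refits kept direction and side of the threshold, and those that did not belonged to Celf1, Clk1, Pdlim5, Srsf1, Srsf9, Tra2a and Ptbp3. Clk1 was called without a filter (adjusted p = 0.00149) and with the replicate block (adjusted p = 0.00877). Ptbp3 ran from -0.021 to 0.14 with 1 sample left out, and with chromosome medians removed Srsf9 was at -0.0029 and Tra2a at 0.039.

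The main test did not pair the samples by replicate number. The labels number the sets of samples alike in both lines and do not say whether a set was handled together. The correlation of deviations was 0.147, 0.0939 and 0.0526 for samples of the same number, and between -0.130 and 0.0571 for different numbers. The values for the same number were all positive, and only the lowest of them lay below the highest value for different numbers. Whether the numbers pair the samples was not tested. With the replicate block 7066 genes and 5 of the 10 splicing regulators were called, against 6517 and 4 in the main test.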

Other observations

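The neighbours of Rbm20 on chromosome 19 were read from the gene order of GENCODE M21, taking the 5 tested genes on each side. Of these 10 genes, 3 rose and 2 fell at an adjusted p under 0.05 (edgeR's quasi-likelihood test), where 40.1% of all genes tested were called. Their log2 fold changes ran from -2.78 to 0.60 with a median of 0.14, against 0.19 for all tested genes of chromosome 19. Smc3, a cohesin subunit and the nearest tested gene before Rbm20, was at 75.3 ± 5.31 CPM in WT against 93.7 ± 2.97 CPM in AS podocytes (± SD, n = 3; log2 fold change 0.32). Pdcd4, an inhibitor of translation and the nearest tested gene after it, was at 56.9 ± 3.33 and 63.3 ± 1.70 CPM (log2 fold change 0.15, adjusted p = 0.0741, edgeR). The lowest value belonged to the adrenergic receptor gene Adra2a, at 0.560 ± 0.125 CPM in WT against 0.0793 ± 0.0330 CPM in AS podocytes. These genes were looked at after the values were seen.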
